A study of Oryza sativa Indica Group and Oryza sativa Japonica Group with 20 samples.

Results

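The H3K4me3 peak lists of rice male meiocytes were compared between 2 cultivars. They comprised 4 of the 20 samples of the series, 2 libraries from IR64, an indica cultivar, and 2 from Azucena, labelled as japonica, and were chosen by the mark and the cell type in the sample titles. All 4 came from wild-type plants without a stated treatment. Meiocytes in prophase of the first meiotic division were drawn by capillary from the anthers of spikelets 0.4 to 0.6 cm long, and the mark was mapped by CUT&Tag, in which an antibody directs a transposase to chromatin. The 4 H3K27me3 lists of the same cells, 2 per cultivar, served as a comparison. Flag-leaf libraries and bisulfite sequencing were not used here. The identity of the cells could not be checked against marker genes, since no annotation of the files' assemblies was at hand.

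H3K4me3 is laid down on nucleosomes around the starts of transcribed genes, and H3K27me3 is the mark of Polycomb repression. Rice chromosomes carry most genes in their arms, while the regions around centromeres are rich in transposons and heterochromatin. Meiotic recombination in plants is known to favour the gene-rich arms and the neighbourhood of promoters, which is why the layout of H3K4me3 in meiocytes is of interest. In bulk libraries, fewer cells carrying the mark at a site and less of the mark per cell cannot be told apart.

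The lists held 34583 and 33717 peaks in IR64 replicates 1 and 2 and 30257 and 31140 in Azucena replicates 1 and 2. The authors' table gave 12.41 and 13.71 M uniquely aligned reads for the IR64 libraries and 9.22 and 11.77 M for the Azucena libraries, so that the cultivar with more peaks also had the deeper libraries. The part of depth in the differences below was not tested with reads; equal numbers of peaks were used as an alternative. Of the peaks, 87.3% and 91.0% in IR64 and 91.9% and 89.3% in Azucena overlapped a peak of the other replicate. Whether the replicates of a cultivar are separate plants is not stated, and p-values therefore measure only how far these libraries spread. With 2 against 2 libraries the exact permutation test has 6 relabellings and cannot go below 0.333, which is the value of groups that do not overlap. The lists of the 2 cultivars were called on different assemblies, and coordinates were therefore never overlapped between them. Each chromosome was divided into 20 equal bins from base 1 to the last base called in any list of the cultivar, and bins were matched by chromosome number and relative position, not by homology. Positions are given in the cultivar's own assembly, whose build is not given in the sources used here.

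In both cultivars H3K4me3 peaks thinned out from the chromosome ends towards the middle. Within 5% of the chromosome length from an end, all 12 chromosomes pooled, there were 122 and 119 peaks per Mb in the IR64 libraries, against 105 and 110 in the Azucena libraries. In the innermost step, from 45 to 50% of the length, the density was 55.9 and 54.3 peaks per Mb in IR64 and 53.7 and 54.2 in Azucena. The libraries of the cultivars thus lay apart at the ends and close together in the middle. The bins with the fewest peaks were bin 8 of chromosome 10 in IR64, with 13.2 and 14.0 peaks per Mb, and bin 9 of chromosome 11 in Azucena, with 21.2 and 20.5. The densest bins of all 4 libraries lay at the far end of chromosome 3, in bin 19 or 20, and held 156 and 150 peaks per Mb in IR64 and 139 and 143 in Azucena.

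**Figure D1:**
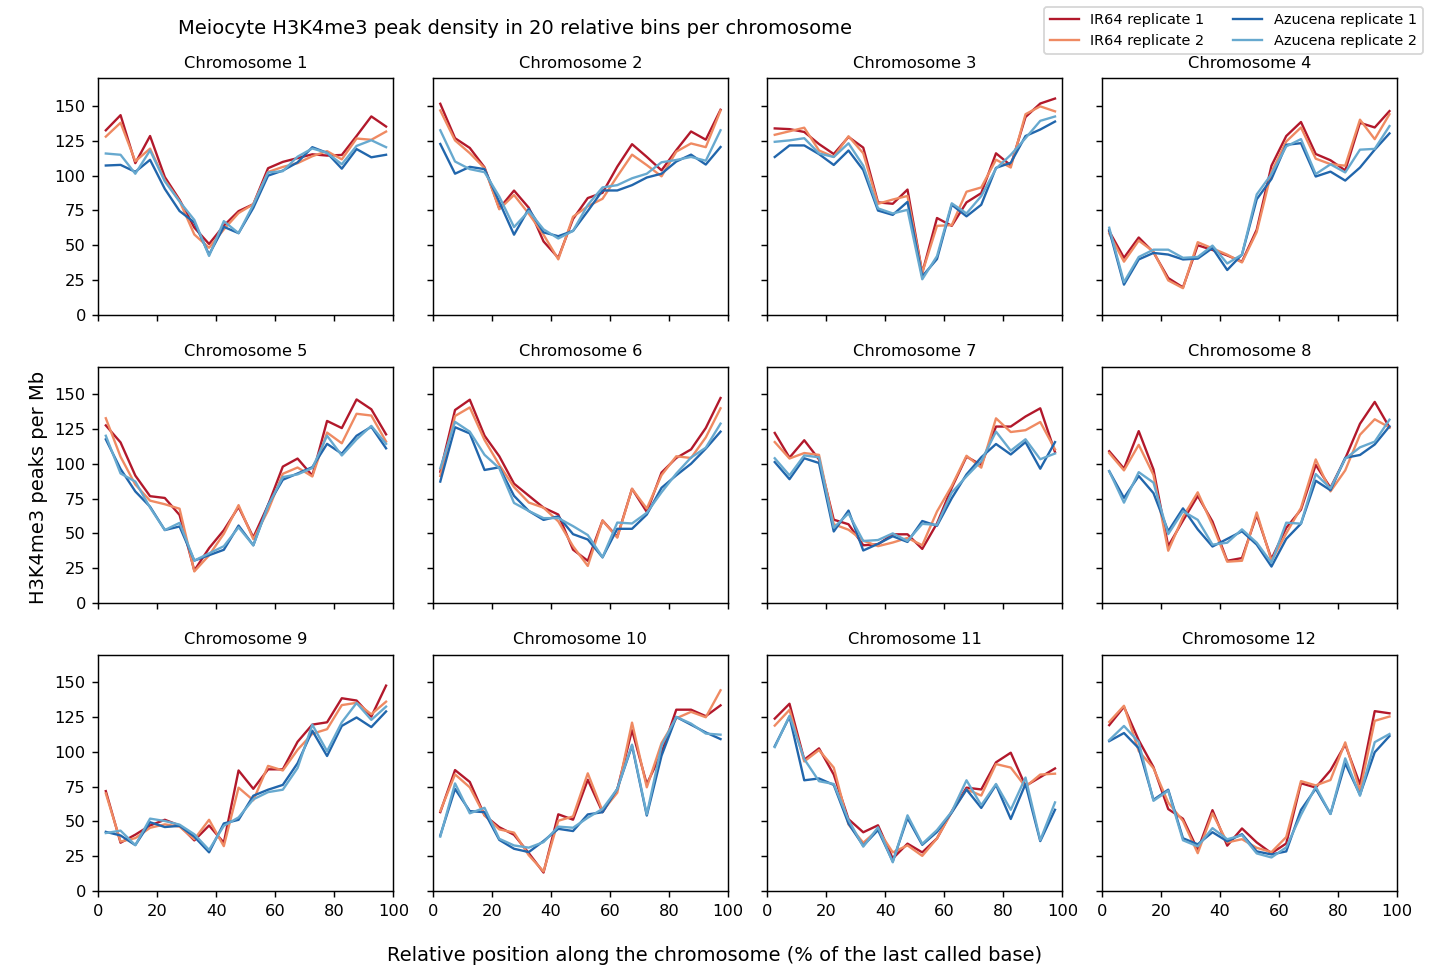
H3K4me3 peaks per Mb (vertical axis) in 20 equal bins along each of the 12 chromosomes (horizontal axis, percent of the last called base), 1 line per library, IR64 in red and orange and Azucena in dark and light blue. The replicates of a cultivar nearly coincide, and in density relative to the library IR64 lies farthest above Azucena in bin 19 of chromosome 11 (81.8 and 83.7 against 35.8 and 36.5 peaks per Mb) and farthest below it in bin 8 of chromosome 10 (13.2 and 14.0 against 35.9 and 35.1).

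The profiles of the cultivars were alike in their outline. Across the 240 bins, Spearman's rho of the peak density was 0.994 between the IR64 replicates and 0.993 between the Azucena replicates. Between an IR64 and an Azucena library it was 0.940 to 0.948. Within single chromosomes the rho between cultivar means over 20 bins was lowest on chromosome 11 (0.839) and highest on chromosome 5 (0.967). These correlations are descriptions: neighbouring bins are not independent, and all profiles share the fall towards the middle.

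The share of peaks in the outer bins (1 to 5 and 16 to 20) was 61.7% and 61.5% in IR64 and 60.4% and 60.6% in Azucena. The density there was 110 and 107 peaks per Mb in IR64 against 96.2 and 99.4 in Azucena. In the central bins 6 to 15 it was 68.2 and 66.9 in IR64 and 63.2 and 64.5 in Azucena. The ratio of outer to central density, called the gradient here, averaged 1.61 ± 0.0107 in the IR64 libraries and 1.53 ± 0.0124 in the Azucena libraries (SD, n = 2 each), a ratio of 1.05 (exact permutation p 0.333, the smallest possible). The libraries did not overlap. Counting peaks with a fold of 4 or more alone, the ratio was 0.990 and the libraries overlapped, at 1.1 and 1.04 in IR64 and 1.08 and 1.08 in Azucena. That filter kept 12270 and 9732 peaks in IR64 and 11835 and 11769 in Azucena, fewest in IR64 replicate 2.

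Chromosome by chromosome the gradient ranged widely and in much the same order in both cultivars. It was above 1 on all 12 chromosomes in all 4 libraries, and no chromosome had an inverted gradient. Chromosome 12 was steepest, at 2.23 and 2.21 in IR64 and 2.20 and 2.26 in Azucena. Chromosome 4 was flattest, at 1.15 and 1.15 in IR64 and 1.05 and 1.08 in Azucena. The flat gradient of chromosome 4 came with a strong difference between its ends: bins 1 to 10 held 0.358 and 0.362 times the density of bins 11 to 20 in IR64, and 0.383 and 0.387 times in Azucena. Bins 1 to 10 of chromosomes 9 and 10 were also poor, at 0.434 and 0.432 for chromosome 9 in IR64 and 0.419 and 0.425 in Azucena, and at 0.498 and 0.482 for chromosome 10 in IR64 and 0.490 and 0.5 in Azucena. The short arms of rice chromosomes 4 and 10 are known as largely heterochromatic.

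The gradients of 12 chromosomes were tested with limma on the log2 scale, with Benjamini-Hochberg adjustment. IR64 was steeper on 5 chromosomes (41.7% of the 12 tested) and shallower on 0, at an adjusted p under 0.05. Without adjustment, 6 passed 0.05. With equal numbers of peaks IR64 was steeper on 4 chromosomes and shallower on 1 (chromosome 3), and the median log2 difference was 0.00593 against 0.033 with all peaks. With peaks of both replicates only it was steeper on 7 and shallower on 2 (chromosomes 3 and 9). On 8 chromosomes (66.7%) the libraries did not overlap with IR64 higher, and on 1 (8.33%) with IR64 lower. The widest difference was that of chromosome 11, with gradients of 2.09 and 2.13 in IR64 and 1.65 and 1.66 in Azucena. The log2 difference was 0.35 (SE 0.022, limma adjusted p 4.43e-13), and both IR64 libraries lay above both Azucena libraries. In limma the SE was 0.022 for each of the 12 chromosomes, so it is not the chromosome's own. These p-values rest on a spread pooled over chromosomes of the same 4 libraries, which are not independent replicates. Chromosome 7 followed, at 1.84 and 1.78 in IR64 against 1.59 and 1.61 in Azucena (log2 difference 0.18, limma adjusted p 1.80e-07). Smaller differences were called on chromosome 4 (0.12, limma adjusted p 6.13e-05), chromosome 1 (0.11, limma adjusted p 0.000171) and chromosome 5 (0.07, limma adjusted p 0.0109). Chromosomes 11 and 4 were called under each alternative tried. With a fold of at least 4, IR64 was steeper on 2 chromosomes (4 and 11) and shallower on 2 (9 and 12), and chromosomes 1 and 7 lost the call and changed direction. The call of chromosome 5 was lost without IR64 replicate 1 (adjusted p 0.0853), without Azucena replicate 1 (0.0747) and without Azucena replicate 2 (0.0553).

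**Figure D2:**
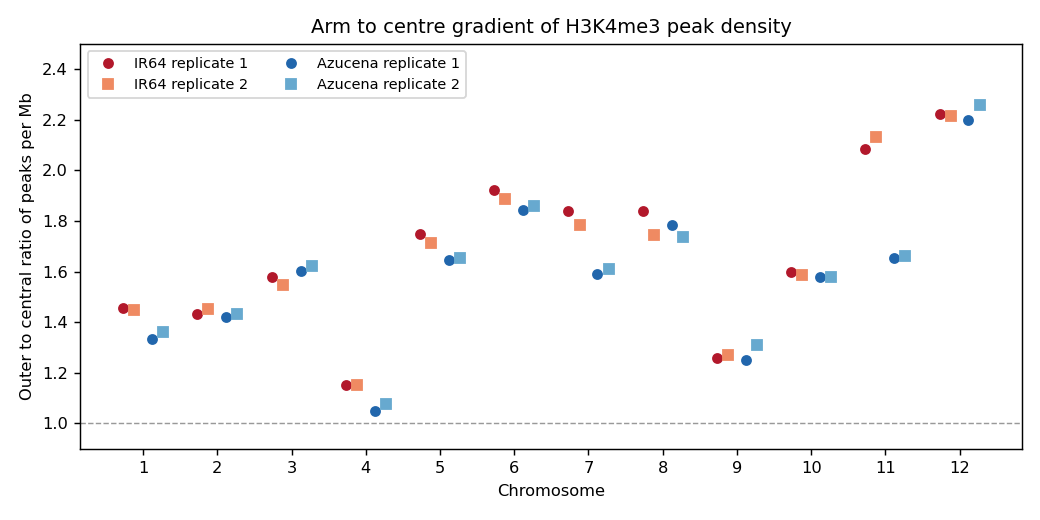
Ratio of outer to central H3K4me3 peak density (vertical axis, peaks per Mb over peaks per Mb) for each of the 12 chromosomes (horizontal axis), 1 point per library, IR64 in red and orange to the left of Azucena in blue; the dashed line marks 1. All points lie above 1, chromosome 4 is lowest and chromosome 12 highest, and the cultivars are farthest apart on chromosome 11 (2.09 and 2.13 against 1.65 and 1.66).

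The poorest stretch of each chromosome was taken as the 3 neighbouring bins with the lowest density in the mean of both libraries. It lay between 25 and 65% of the length on 11 chromosomes in both cultivars. On chromosome 4 it lay nearer the start, at 15 to 30% in IR64 and 5 to 20% in Azucena. The run lay in the same bins in IR64 and Azucena on 6 chromosomes (2, 5, 6, 7, 10 and 12) and was 1 bin apart on chromosomes 1, 3 and 9. On chromosomes 4 and 11 the runs were 2 bins apart. On chromosome 8 they were 3 bins apart and shared none: bins 8 to 10 in IR64 (10654968 to 15221382) and bins 11 to 13 in Azucena (14574397 to 18946714). The density of the run relative to its chromosome lay between 0.353 (chromosome 10) and 0.554 (chromosome 1) in IR64. In Azucena it lay between 0.423 (chromosome 12) and 0.632 (chromosome 2). The sparsest runs held 27 peaks per Mb on chromosome 10, 28.4 on chromosome 11 and 30.0 on chromosome 4 in IR64. In Azucena the sparsest runs were those of chromosome 12 (27.5 peaks per Mb), chromosome 10 (32.1) and chromosome 11 (32.6).

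Bins were then tested one by one. For each bin the density was divided by that of the whole library, and log2 values were compared with limma. The division removes a uniform difference in peak number, but not one that varies along the chromosome. Of 240 bins, 110 (45.8%) differed at an adjusted p under 0.05, 49 higher in IR64 (20.4%) and 61 lower (25.4%). Without overlap between the libraries, 92 bins (38.3%) were higher and 92 (38.3%) lower. Most differences were small. The median absolute difference over all bins was 0.11 on the log2 scale, or 1.08-fold, and 16 bins differed by at least 1.5-fold and passed the test, 6 higher in IR64 and 10 lower. Without division by the library's density, IR64 had more peaks per Mb in 162 bins and fewer in 43, without overlap. Of the 110 called bins, 55 stood next to a bin called in the opposite direction and 47 next to one called in the same direction. A bin could enter both counts. The numbers expected from the shares of calls alone were not worked out, so these counts show no particular arrangement. Bins matched by homology were not analysed here.

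The called bins were unevenly placed. Of the 120 outer bins 26 were higher in IR64 and 17 lower, while of the 120 central bins 23 were higher and 44 lower. As densities are relative to the library's own, an outer excess goes with a central deficit, and these counts restate the gradient. Chromosome 8 had 14 called bins of 20, chromosomes 4, 9, 10 and 11 had 12 each, and chromosome 3 had 3, against 45.8% of all 240 bins. The last called base of IR64 over that of Azucena was 1.05 on chromosomes 9 and 11, 1.04 on chromosomes 4 and 8 and 1.03 on chromosome 10. It was 1.02 on chromosome 3, and 1.04 on chromosomes 6 and 7, which had 7 and 6 called bins. Where lengths differ, bins of the same number can cover unlike stretches. The part of this in the counts was not tested. With equal numbers of peaks 109 bins were called, 96 of them among the 110. The whole set was smaller with a fold of at least 4, where 53 bins were called. Of the 110, 43 were also called there, 2 of these with the opposite sign. Counting bins not called there as well, 18 of the 110 had the opposite sign.

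The bin with the greatest excess in IR64 was bin 19 of chromosome 11, at 90 to 95% of the chromosome (28612050 to 30201607 in IR64, 27153784 to 28662327 in Azucena). It held 130 and 133 peaks in IR64, or 81.8 and 83.7 per Mb, against 54 and 55 peaks in Azucena, or 35.8 and 36.5 per Mb. The log2 difference of relative density was 1.06 (SE 0.0385, limma adjusted p 2.25e-06), and the groups were far apart. Bins 17 and 20 near that end, chosen after their values were seen, also had more peaks per Mb in IR64. Bin 17 held 99.4 and 88.7 peaks per Mb in IR64 and 51.7 and 58.3 in Azucena (log2 difference 0.65), and bin 20 held 88.1 and 84.3 in IR64 and 58.3 and 63.6 in Azucena (log2 difference 0.37). Bin 18 between them went the other way, at 75.5 and 74.9 peaks per Mb in IR64 against 76.9 and 81.5 in Azucena (log2 difference -0.20, limma adjusted p 0.00342). Azucena had its longest stretch without H3K4me3 peaks outside chromosome 8 across the border of bins 19 and 20 (28386058 to 28755006). Rice chromosome 11 is known for clusters of disease resistance genes; whether they lie in these bins was not analysed here.

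Other bins with more peaks in IR64 lay in arms and centres alike. Bin 12 of chromosome 6 (17842997 to 19465086 in IR64, 17153967 to 18713418 in Azucena) held 59.2 and 59.2 peaks per Mb in IR64 against 32.7 and 32.7 in Azucena (log2 difference 0.73). Bin 2 of chromosome 4, in the poor part of that chromosome (1781487 to 3562972 in IR64, 1709587 to 3419173 in Azucena), held 41 and 38.2 in IR64 against 21.6 and 23.4 in Azucena (log2 difference 0.68). The first bin of chromosome 9, from base 1 to 1212203 in IR64 and to 1154266 in Azucena, held 71.8 and 70.1 in IR64 against 42.5 and 41.6 in Azucena (log2 difference 0.63). With a fold of at least 4 that difference was 0.16 and no longer passed the test. Bins 8 and 10 of chromosome 9, bin 12 of chromosome 3, bin 11 of chromosome 10 and bin 11 of chromosome 8 completed the 10 largest excesses, with log2 differences of 0.46 to 0.65. All 10 kept their call and direction with each library left out in turn.

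Of the bins poorer in IR64, bin 8 of chromosome 10 stood first (9021914 to 10310758 in IR64, 8783121 to 10037852 in Azucena). It held 17 and 18 peaks in IR64 and 45 and 44 in Azucena, that is 13.2 and 14.0 against 35.9 and 35.1 per Mb. The log2 difference was -1.48 (SE 0.0499, limma adjusted p 2.06e-06). The bin was the last of the poorest run of chromosome 10 in both cultivars. Bins 5 and 6 of chromosome 4 came next. Bin 6 (8907431 to 10688916 in IR64, 8547934 to 10257519 in Azucena) held 19.6 and 19.1 peaks per Mb in IR64 and 39.8 and 40.9 in Azucena (log2 difference -1.17, limma adjusted p 1.33e-06). Bin 5 held 26.4 and 24.7 in IR64 and 43.3 and 46.8 in Azucena (log2 difference -0.94). In these bins the IR64 libraries lay far below both Azucena libraries. The others were bins 9 and 10 of chromosome 8, bin 11 of chromosome 6, bin 10 of chromosome 11, bin 11 of chromosome 7, bin 9 of chromosome 9 and bin 11 of chromosome 4, with log2 differences of -0.61 to -0.86.

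Bins of opposite sign stood side by side on most chromosomes, and 2 examples from the centres of chromosomes 6 and 8 are given. Over whole chromosomes, called bins next to an opposite call numbered 10 on chromosome 9, 9 on chromosome 4 and 8 on chromosome 8. There were 7 each on chromosomes 10 and 12, 4 on chromosome 6 and 0 on chromosomes 5 and 7. On chromosome 6, bin 11 held 30.2 and 26.5 peaks per Mb in IR64 and 45.5 and 48.7 in Azucena (log2 difference -0.85), next to the excess of bin 12. On chromosome 8, bin 10 held 32.2 and 30.2 in IR64 and 51.5 and 52.8 in Azucena (log2 difference -0.86), while bin 11 held 63.1 and 65.0 in IR64 and 41.9 and 43.2 in Azucena (log2 difference 0.46). Those bins are also where the poorest runs of the cultivars parted on chromosome 8.

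The longest stretches without an H3K4me3 peak in either library were looked at next. In IR64 the longest lay on chromosome 4, 9882157 to 10412779 (530623 bp), inside bin 6 of that chromosome. It was followed by 475356 bp on chromosome 12 (7504081 to 7979436) and 432763 bp on chromosome 7 (16314053 to 16746815). The next were 394437 bp on chromosome 4 (7048903 to 7443339), 369032 bp on chromosome 3 (13655407 to 14024438) and 365810 bp again on chromosome 4 (16584366 to 16950175). Chromosome 4 thus held 3 of the 6 longest in IR64. In Azucena the longest lay on chromosome 8, 16187701 to 16607439 (419739 bp), with another on the same chromosome, 15810897 to 16158738 (347842 bp), both in its poorest run. The others spanned 368949 bp on chromosome 11 (28386058 to 28755006), 350813 bp on chromosome 1 (17294446 to 17645258), 316524 bp on chromosome 9 (3044467 to 3360990) and 299537 bp on chromosome 7 (13710586 to 14010122). Stretches over 100000 bp numbered 216 in IR64, with 34.4 Mb in all, and 186 in Azucena, with 28.0 Mb. The longest stretch of a chromosome lay in its poorest run on 6 of 12 chromosomes in each cultivar. Mappability in these stretches was not analysed here.

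Some of these stretches carried H3K27me3 peaks. The longest stretch of IR64 held 13 H3K27me3 summits in replicate 1 and 0 in replicate 2, whose libraries had 47.91 and 9.0 M uniquely aligned reads. In the other 5 IR64 stretches replicate 1 had 1 to 7 and replicate 2 had 0 to 3. In Azucena 4 of the 6 stretches had 0 in both replicates. The stretch on chromosome 7 had 3 and 3, and that on chromosome 11 had 0 and 3.

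Neighbouring peaks stood closer together in IR64. The median distance between neighbouring summits was 6760 and 6933 bp in the IR64 libraries and 7655 and 7493.5 bp in the Azucena libraries. Both IR64 values lay below both Azucena values, at 6846.5 ± 122 against 7574.25 ± 114 bp (SD, n = 2 each), a ratio of 0.904 (exact permutation p 0.333). The share of distances under 2000 bp was 12.1% and 13% in IR64 and 9.05% and 9.42% in Azucena, from 4171 and 4368 against 2734 and 2928 distances. Distances over 50000 bp made up 2.57% and 2.66% in IR64 and 3.10% and 2.94% in Azucena. Neither share overlapped between the cultivars. IR64 over Azucena was 1.35 for the short and 0.867 for the long distances, and the exact permutation p was 0.333 for both. The lists differ in length, and the differences were not kept when it was made equal. With the 30232 peaks of highest −log10 p in each library the median distance was 7763.5 and 7806 bp in IR64 and 7655 and 7715 bp in Azucena, a ratio of 1.01. The share under 2000 bp was then 8.29% and 9.74% in IR64 and 9.05% and 8.58% in Azucena, with overlapping libraries.

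**Figure D3:**
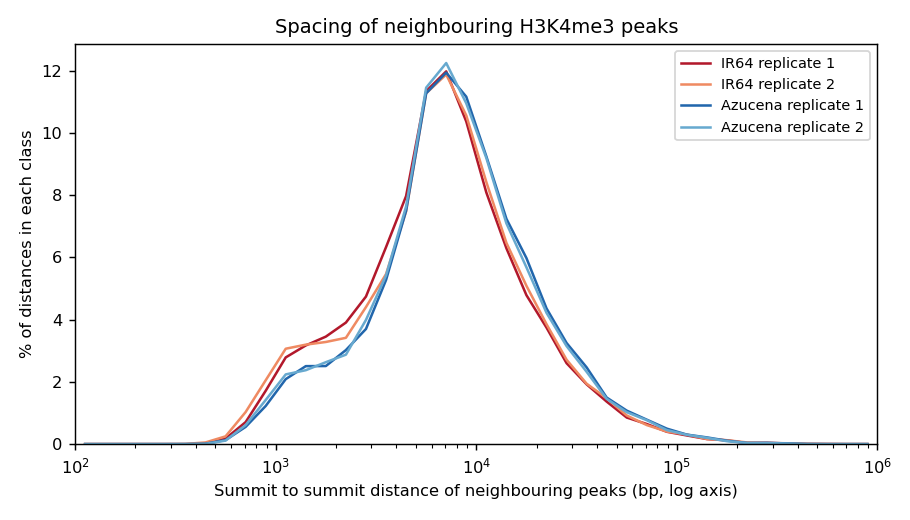
Share of summit to summit distances between neighbouring H3K4me3 peaks (vertical axis, percent of a library's distances in each class) against distance (horizontal axis, bp, log scale), 1 line per library. All 4 libraries peak at about the same distance and show a shoulder at short distances that is higher in both IR64 libraries, where 12.1% and 13% of distances were under 2000 bp against 9.05% and 9.42% in Azucena.

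The unevenness of spacing also differed. The coefficient of variation (SD over mean) of the distances was 1.58 and 1.60 in IR64 and 1.44 and 1.42 in Azucena, a ratio of 1.11 (exact permutation p 0.333). With equal numbers of peaks it was 1.53 and 1.54 in IR64 against 1.44 and 1.41 in Azucena, still without overlap. With a fold of at least 4 the direction turned round, at 1.138 and 1.107 in IR64 against 1.142 and 1.144 in Azucena, a ratio of 0.982. After division by the mean distance of the bin, which removes the fall in density along the chromosome, it was 1.13 and 1.14 in IR64 and 1.08 and 1.06 in Azucena. The longest single distance was 531704 and 531631 bp in IR64 and 421257 and 421746 bp in Azucena. Median distances were shorter in the outer than in the central bins in each library, at 6238 and 6459 against 7908 and 8039 bp in IR64 and 7063 and 6893 against 8858 and 8735 bp in Azucena. Among chromosomes the median was shortest on chromosome 3 in all 4 libraries, at 6388 and 6493 bp in IR64 and 7071 and 6955 bp in Azucena. It was longest on chromosome 11 in 3 of the 4 libraries, with 7265 and 7498 bp in IR64 and 8725 and 8456 bp in Azucena; in IR64 replicate 1 chromosome 10 had 7274 bp. Successive distances were nearly unrelated, with a Spearman's rho of 0.0580 and 0.0403 in IR64 and 0.0605 and 0.0679 in Azucena, too weak in such data to be a finding.

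Crowded peaks were narrow and weak. In the quintile of peaks with the nearest neighbour, the median width was 566 and 546 bp in IR64 and 593 and 589 bp in Azucena. In the quintile with the farthest nearest neighbour it was 1076 and 1066 bp in IR64 and 980 and 1014 bp in Azucena. The median fold enrichment over the caller's background was 2.93 and 2.90 in the closest quintile in IR64 and 3.10 and 3.03 in Azucena. In the farthest quintile it was 4.41 and 4.15 in IR64 and 4.40 and 4.36 in Azucena. The order was the same in all 4 libraries. Width and distance are tied by construction, since peaks that touch are 1 peak.

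The position of the summit within its peak was close to symmetric. The mean relative position, from 0 at the lower coordinate to 1 at the higher, was 0.495 and 0.494 in IR64 and 0.493 and 0.494 in Azucena, a difference of 0.00136 (exact permutation p 0.333). Peaks carry no strand, so the upstream and downstream sides of a gene could not be separated. Summits were spread over a broad middle: with the peak cut into 10 equal segments, each of the 4 middle segments held 12.8 to 14.7% of summits and each end segment 1.43 to 2.63%. The median offset from the centre, on a scale where 1 is the edge, was 0.36 and 0.385 in IR64 and 0.347 and 0.353 in Azucena, a ratio of 1.06 (exact permutation p 0.333). With equal numbers of peaks it was 0.3477 and 0.374 in IR64 and 0.3474 and 0.3481 in Azucena, and the libraries overlapped. IR64 replicate 2 stood apart: without it the ratio with all peaks was 1.03. That library also had the narrowest peaks, with a median width of 800 bp against 826 bp in IR64 replicate 1 and 822 and 831 bp in Azucena, and the lowest median fold, 3.38 against 3.52 in IR64 replicate 1 and 3.70 and 3.64 in Azucena. Its part in the result beyond that value was not tested.

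Wider peaks had summits farther from their centre. Summits nearer to an edge than to the centre made up 25.4% and 27.8% of IR64 peaks up to 500 bp wide and 24.2% and 25.1% of such Azucena peaks. In peaks over 500 and up to 1000 bp the share was 27.7% and 33.4% in IR64 and 25.8% and 27.4% in Azucena. In peaks over 1000 and up to 2000 bp it was 39.998% and 43.5% in IR64 and 37.6% and 37.0% in Azucena, and over 2000 bp 46.8% and 42.9% in IR64 and 45.4% and 48.1% in Azucena. The share was higher in each wider class in 3 libraries, while in IR64 replicate 2 it was slightly lower over 2000 bp than in the class before. In base pairs the median offset rises with width by construction where the relative position stays the same, so its rise is not a separate result. It was 59 and 63 bp in IR64 and 58.5 and 60.5 bp in Azucena up to 500 bp. Over 2000 bp it was 519 and 493 bp in IR64 and 510 and 537 bp in Azucena.

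**Figure D4:**
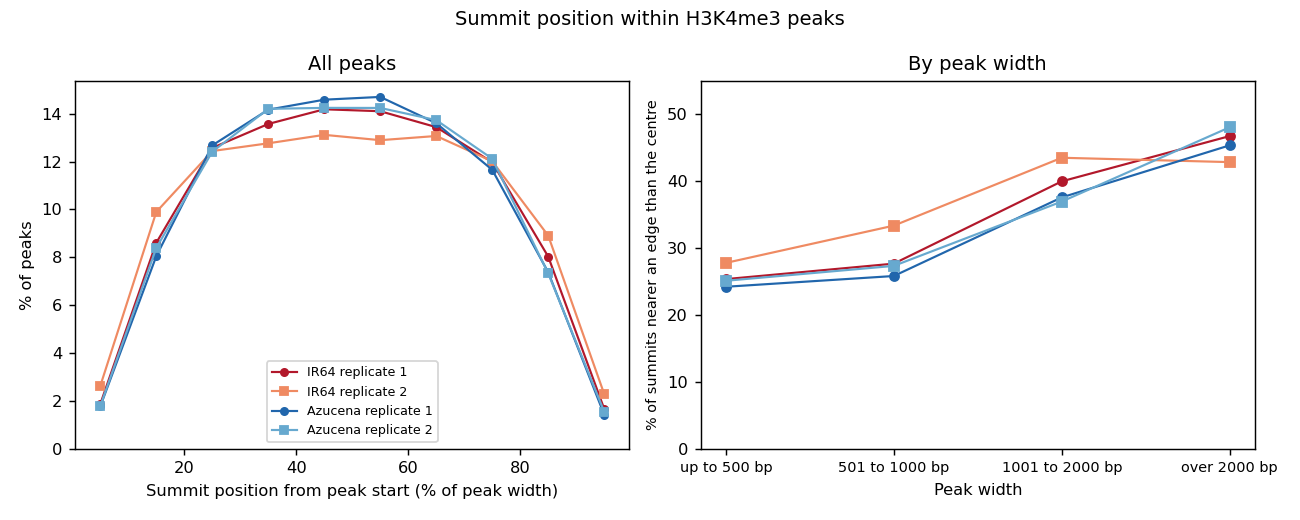
Left, share of H3K4me3 peaks (vertical axis, percent) by the position of the summit in 10 equal segments of the peak width (horizontal axis); right, share of summits nearer to an edge than to the centre (vertical axis, percent) by class of peak width (horizontal axis), 1 line per library. The summits form a flat plateau in the middle of the peak, lowest in IR64 replicate 2, and the share near an edge is 24.2 to 27.8% in peaks up to 500 bp and 42.9 to 48.1% in peaks over 2000 bp.

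Peaks close together tended to have their summits turned away from each other. Among neighbours with a gap of at most 1000 bp, 786 pairs had summits on the facing sides and 1012 on the far sides in IR64 replicate 1, and 807 and 1082 in IR64 replicate 2. In Azucena there were 494 facing and 664 turned away in replicate 1, and 532 and 667 in replicate 2. The facing share was 43.7% (95% Wilson interval 41.4 to 46.0) and 42.7% (40.5 to 45.0) in IR64 and 42.7% (39.8 to 45.5) and 44.4% (41.6 to 47.2) in Azucena. All 4 intervals lay below 50%, and they cover counting error only. They also take pairs as independent, although successive pairs share a peak. Few such pairs had a fold of at least 4, and there the facing share was 57.1% (24 facing, 18 turned away) and 53.8% (21 and 18) in IR64 and 42.9% (12 and 16) and 38.7% (12 and 19) in Azucena. All 4 of those intervals included 50%. The cultivars overlapped, with a ratio of 0.993 (exact permutation p 1). Facing and turned-away pairs alternate along a chromosome, so their totals over all gaps are nearly equal by construction. In IR64 replicate 1 the totals were 8605 and 8605, and in Azucena replicate 1 they were 7476 and 7469. A deficit of facing pairs at short gaps therefore forces an excess at other gaps, and the shares by gap are not separate results. At gaps over 2000 and up to 5000 bp the facing share was 53.8% and 53.5% in IR64 and 56.2% and 55.6% in Azucena. Beyond 5000 bp it was 49.1% and 49.7% in IR64 and 47.7% and 48.2% in Azucena. With gaps under 500 bp merged, the share was 47.2% and 43.8% in IR64 and 43.4% and 49.2% in Azucena. The intervals of IR64 replicate 1 (44.1 to 50.3) and Azucena replicate 2 (45.3 to 53.1) then included 50%. Without merging, at gaps over 500 and up to 1000 bp, the share was 47.7% and 44.3% in IR64 and 44.0% and 49.9% in Azucena. There too the intervals of IR64 replicate 1 (44.5 to 50.9) and Azucena replicate 2 (46.0 to 53.8) included 50%.

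Stronger peaks were wider in both cultivars. From the lowest to the highest quintile of fold enrichment the median width was 467, 661, 889, 1022.5 and 1077 bp in IR64 replicate 1 and 458, 645, 850, 1008 and 1073 bp in IR64 replicate 2. It was 496, 700, 851, 991.5 and 1017 bp in Azucena replicate 1 and 485, 685, 875, 996 and 1034 bp in Azucena replicate 2. Width levelled off in the upper quintiles in each library. The highest quintile was 2.31 and 2.34 times as wide as the lowest in IR64 and 2.05 and 2.13 times in Azucena, a ratio of 1.11 (exact permutation p 0.333). Spearman's rho of width and fold across peaks was 0.486 and 0.486 in IR64 and 0.433 and 0.455 in Azucena, a difference of 0.0419 (exact permutation p 0.333). The libraries did not overlap. The direction turned round with the 30232 peaks of highest −log10 p in each, a choice that also removes the weakest peaks: there the rho was 0.347 and 0.381 in IR64 and 0.433 and 0.421 in Azucena. Among peaks with a fold of at least 4 the rho was 0.0425 and -0.00773 in IR64 and 0.0269 and 0.0221 in Azucena.

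The widest peaks were not the strongest. Peaks over 2000 bp made up 4.97% and 4.27% of the fourth quintile of fold in IR64, against 2.39% and 2.65% of the highest quintile. In Azucena the share was 3.04% and 3.62% in the fourth and 1.24% and 1.38% in the highest quintile. The lowest quintile had under 1% in each library, at 0.737% and 0.371% in IR64 and 0.728% and 0.595% in Azucena. Regions holding a peak of both replicates numbered 29541 in IR64, of which 745 had a mean width over 2000 bp, and 27223 in Azucena, of which 569 did.

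The 5 widest of these regions were taken in each cultivar's own assembly, without matching between them. In IR64 they were chromosome 5, 30334851 to 30338938 (widest peaks of 4067 and 2484 bp in replicates 1 and 2), with 3221 and 3266 bp chromosome 2, 21310362 to 21313793, with 3135 and 3327 bp chromosome 6, 24940202 to 24943528, with 3194 and 3194 bp chromosome 2, 29412615 to 29415840, and with 3074 and 3251 bp chromosome 4, 19303358 to 19306608. None of these 5 overlapped an H3K27me3 peak of IR64, but among all 745 such IR64 regions 146 overlapped one of replicate 1 (19.6%) and 138 one of replicate 2 (18.5%). In Azucena they were chromosome 12, 8135716 to 8139150 (3382 and 3364 bp), with 3045 and 3236 bp chromosome 2, 25525233 to 25528468, with 2483 and 3794 bp chromosome 1, 3755449 to 3759242, with 2990 and 3171 bp chromosome 2, 7358855 to 7362054, and with 2778 and 3348 bp chromosome 4, 31521121 to 31524546. Those on chromosomes 12 and 4 overlapped H3K27me3 peaks of both Azucena replicates, and the first of chromosome 2 a peak of replicate 1. Among all 569 such Azucena regions 167 overlapped a peak of replicate 1 (29.3%) and 169 one of replicate 2 (29.7%). H3K27me3 peaks were fewer in IR64, at 12629 and 10134 against 17362 and 17623 in Azucena.

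Among the regions over 2000 bp wide, those of highest fold had their summits far from the centre in several cases. Such summits were common at that width and not particular to these regions. Of all peaks over 2000 bp, 46.8% and 42.9% in IR64 and 45.4% and 48.1% in Azucena had summits nearer to an edge than to the centre. In IR64, chromosome 12, 18794923 to 18797714, had folds of 6.25 and 6.45 and its summit at 0.0875 and 0.0612 of the peak width. Chromosome 12, 10711642 to 10714310, had folds of 6.44 and 6.21 with the summit at the other end, at 0.932 and 0.922. The remaining 3 in IR64 lay at 24192480 to 24194560 on chromosome 11, at 42565493 to 42567722 on chromosome 1 and at 8645078 to 8647256 on chromosome 8, with mean folds of 5.83 to 5.88. The second region of chromosome 12 and those on chromosomes 11 and 1 overlapped H3K27me3 peaks of both IR64 replicates. Of all 745 IR64 regions over 2000 bp wide, 127 did (17.0%). In Azucena, chromosome 10, 8939613 to 8941746, led with folds of 5.97 and 6.0 and its summit at 0.855 and 0.795. It was followed by regions at 7170948 to 7173048 on chromosome 5, at 11472665 to 11474810 on chromosome 2, at 21865333 to 21868209 on chromosome 8 and at 12778759 to 12781497 on chromosome 9, with mean folds of 5.59 to 5.80. The last had its summit at 0.110 and 0.0865. Those on chromosomes 2, 8 and 9 overlapped H3K27me3 peaks of both Azucena replicates, and that on chromosome 5 a peak of replicate 2. Of all 569 Azucena regions over 2000 bp wide, 148 overlapped peaks of both replicates (26.0%). The replicates placed the summits of these 10 high-fold regions at similar positions, apart from chromosome 11 in IR64 (0.419 and 0.249) and chromosome 8 in Azucena (0.287 and 0.721). Among the 5 widest IR64 regions, the replicates differed on chromosome 2 at 29412615 to 29415840 (0.915 and 0.222) and on chromosome 6 (0.520 and 0.885). In the other widest regions of both cultivars they lay closer together.

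Peaks near chromosome ends were weaker than peaks in the centre. The median fold in the first 5% from an end was 3.26 and 3.16 in IR64 and 3.48 and 3.43 in Azucena. In the innermost step it was 3.92 and 3.80 in IR64 and 4.11 and 4.03 in Azucena. The ratio of median fold, outer over central, was 0.888 and 0.897 in IR64 and 0.898 and 0.9 in Azucena, so all 4 libraries lay below 1. The cultivars differed by a ratio of 0.993 without overlap (exact permutation p 0.333). Median width changed less, with an outer to central ratio of 0.956 and 0.941 in IR64 and 0.971 and 0.949 in Azucena, which overlapped (ratio 0.988, exact permutation p 0.667).

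The gradient therefore depended on which peaks were counted. In the lowest quintile of fold the outer to central density ratio was 2.5 and 2.46 in IR64 and 2.35 and 2.40 in Azucena. It was lower in each higher quintile, and in the highest it was 0.935 and 0.932 in IR64 and 0.881 and 0.875 in Azucena. The strongest peaks were thus slightly denser in the central than in the outer bins in all 4 libraries, with 48.3% and 48.2% of them in the outer bins in IR64 and 46.8% and 46.7% in Azucena. In that quintile IR64 averaged 0.934 ± 0.0025 and Azucena 0.878 ± 0.00404 (SD, n = 2 each; exact permutation p 0.333). Ranked by −log10 q in place of fold, the ratio in the highest quintile was 1.19 and 1.19 in IR64 and 1.18 and 1.2 in Azucena, and did not pass below 1. In the lowest quintile of −log10 q it was 1.85 and 1.91 in IR64 and 1.77 and 1.83 in Azucena. Fold is relative to the caller's background, and the part of that background in the pattern was not tested.

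**Figure D5:**
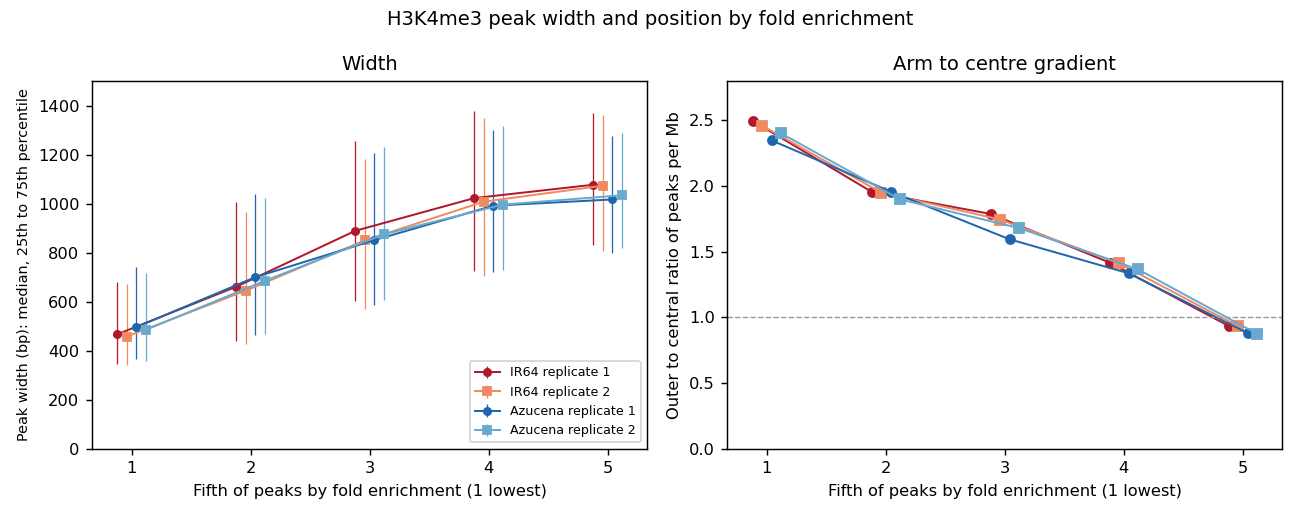
Left, median H3K4me3 peak width with its 25th to 75th percentile (vertical axis, bp; bars) and, right, the ratio of outer to central peak density (vertical axis; dashed line at 1), each by quintile of peaks ranked by fold enrichment (horizontal axis, 1 lowest), 1 line per library. Width is 458 to 496 bp in the lowest and 1017 to 1077 bp in the highest quintile, while the density ratio is 2.35 to 2.5 in the lowest and 0.875 to 0.935 in the highest.

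Set against H3K27me3 in the same cells, H3K4me3 peaks had the steeper gradient and stood closer together. The outer to central ratio averaged 1.57 ± 0.0438 for H3K4me3 and 1.32 ± 0.0775 for H3K27me3 (SD, n = 4 each), where the H3K27me3 libraries had 1.22 and 1.3 in IR64 and 1.37 and 1.39 in Azucena. The ratio was 1.19 (exact permutation within cultivar, p 0.0556, the smallest of 36 relabellings). Median distances averaged 7210 ± 431 bp in the H3K4me3 lists and 12187 ± 4331 bp in the H3K27me3 lists (SD, n = 4 each; exact permutation p 0.0556). Both differences turned round with the 10134 peaks of highest −log10 p in each of the 8 lists, an alternative chosen after seeing the data, where the ratios were 0.971 and 1.32. That choice changes the length of the lists and the strength of the peaks together. The summit offset was 0.361 ± 0.0165 for H3K4me3 and 0.338 ± 0.0150 for H3K27me3 (SD, n = 4 each; exact permutation p 0.0556). The rho of width and fold was 0.465 ± 0.0258 for H3K4me3 and 0.399 ± 0.110 for H3K27me3 (SD, n = 4 each; exact permutation p 0.333). The cultivars went opposite ways: the H3K27me3 libraries had 0.281 and 0.330 in IR64, below both H3K4me3 libraries, and 0.489 and 0.497 in Azucena, above both. The facing share of close neighbours, compared after its values were seen, was 43.4% ± 0.826 for H3K4me3 and 49.3% ± 2.21 for H3K27me3 (SD, n = 4 each, exact permutation p 0.0556). At gaps of at most 500 bp the IR64 lists had 39.2% and 41.2% for H3K4me3 and 38.7% and 39.9% for H3K27me3. The Azucena lists had 41.25% and 38.1% for H3K4me3 and 47.0% and 46.6% for H3K27me3. With 10134 peaks in each of the 8 lists the marks overlapped. H3K4me3 then had 57.1% and 55.3% in IR64 and 42.9% and 60% in Azucena, from few pairs. H3K27me3 had 47.6% and 46.9% in IR64 and 54.1% and 56.9% in Azucena.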

How the data were processed

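Meiocyte CUT&Tag peak lists were analysed, 2 H3K4me3 and 2 H3K27me3 libraries per cultivar. fastp 0.20.1, Bowtie2, Bismark 0.22.3 and MACS2 2.1.0 are named in the submitters' processing notes, without roles; control, duplicate filter and genome builds are not given in the sources used here. The authors deposited 1 list per library, with a score, a fold enrichment (ratio), −log10 p and −log10 q per peak (lowest −log10 q 2.01 to 2.03 for H3K4me3) and the summit offset. Folds and −log10 values were used as the authors deposited them, to rank or filter peaks within a list. The authors' deposited table gave reads per library.

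Python 3.11.15, numpy 2.4.6, scipy 1.17.1 and pandas 2.3.3 were used for peak measures, and limma 3.58.1 in R 4.3.3 for bins and gradients. Groups and replicate numbers came from sample titles. Summits on 12 chromosomes were counted in 20 bins; Azucena contigs were left out. Single measures were compared by exact two-sided permutation of libraries. Bins and gradients were compared by limma on log2 relative density (pseudocount 0.5 peaks) and log2 gradient, called at an adjusted p under 0.05, after tests on simulated data.

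Named regions were the 10 most changed called bins per direction without overlap, the poorest 3-bin run per chromosome, the 6 longest peak-free stretches and, per cultivar, the 5 widest reproducible regions and the 5 of highest fold among those over 2000 bp; further bins of chromosome 11 were chosen after their values were seen. Members, lists and rules were chosen with earlier results of these data known. Alternatives covered peak thresholds, equal peak numbers, peaks of both replicates, merging of gaps under 500 bp, 10 or 40 bins, chromosome ends, edge to edge gaps, widths of at least 500 bp, pseudocount and filter, a variance trend, a replicate block and libraries left out. Same-numbered replicates were not treated as pairs. Genes and sequences were not analysed, since the gene table at hand belongs to another assembly.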

Additional observations from a re-analysis of the deposited data

Results flagged for a closer look

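The outer to central gradient differed between IR64 and Azucena on 5 chromosomes by limma. The log2 differences of IR64 over Azucena were 0.35 on chromosome 11, 0.18 on chromosome 7, 0.12 on chromosome 4, 0.11 on chromosome 1 and 0.0689 on chromosome 5.

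On chromosome 12 bins 1 to 10 held fewer peaks per Mb than bins 11 to 20 in both IR64 libraries, with a mean ratio of 0.938, and more in both Azucena libraries, with a mean ratio of 1.02. On chromosome 11 outer peaks were wider than central peaks in both IR64 libraries, with a mean ratio of 1.05, and narrower in both Azucena libraries, with a mean ratio of 0.945. The rho of width and fold was higher for H3K4me3 than for H3K27me3 in IR64, by 0.18, and lower in Azucena, with a difference of -0.0487. None of these 3 differences between the cultivars was tested.

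The Azucena lists also held H3K4me3 peaks on unplaced contigs, 25 in replicate 1 and 50 in replicate 2, which entered no comparison. The IR64 lists held 0 such peaks.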

How the results depend on the processing

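Of 250 alternative values for the 20 comparisons, 223 kept their direction and side of the threshold, 24 changed direction and 3 counts moved by over 1.5 times. Ratios are IR64 over Azucena. With a fold of at least 4 they were 0.995 for the outer share, 0.990 for the gradient, 1.12 for median spacing, 1.2 for spacings over 50000 bp, 0.982 for the CV of spacing, 1.36 for the facing share, 1.001 for width and 1.01 for fold, outer over central, and the rho of width and fold differed by -0.00711. With equal peak numbers they were 1.01 for median spacing, 1.02 for spacings over 50000 bp, 1.02 for the facing share and 0.873 for width of the highest over the lowest fold quintile, and the rho differed by -0.0632. With 40 bins the share in the densest bins was 1.01. For H3K4me3 over H3K27me3, a fold of at least 4 gave 0.989 for the gradient and -0.103 for the difference in rho, equal H3K4me3 numbers gave -0.00387 for rho, and equal numbers in all 8 lists gave 0.971 for the gradient, 1.32 for spacing and -0.282 for rho. The cause of these changes was not tested. Called bins numbered 53 with a fold of at least 4 and 194 with peaks of both replicates only, where 9 gradients were called; that filter makes replicates alike by construction. With 10 bins a chromosome 54 of 120 bins were called, and with 40 bins 249 of 480.

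Leaving out 1 library gave 89 to 102 called bins, ratios of 0.974 to 1.01 for the facing share (above 1 without IR64 replicate 2 or Azucena replicate 2) and of 0.977 to 1.00002 for width, outer over central. Log2 gradients crossed 0 for chromosome 8 (-0.0134 to 0.0636, negative without IR64 replicate 1), chromosome 9 (-0.0523 to 0.0149, positive without Azucena replicate 2) and chromosome 12 (-0.0260 to 0.0145, likewise), none of them called. Other reversals with a fold of at least 4 were -0.000849 on chromosome 1, -0.113 on chromosome 2, -0.117 on chromosome 6, -0.120 on chromosome 7 and -0.0324 on chromosome 10. With a −log10 q of at least 5 they were -0.00925 on chromosome 10 and 0.0581 on chromosome 12, with equal numbers -0.0165 on chromosome 8 and 0.00987 on chromosome 12, and with peaks of both replicates only -0.00307 on chromosome 2, -0.000534 on chromosome 8 and 0.0411 on chromosome 12. Same-numbered replicates deviated together with a correlation of 0.0352 over 240 bins, which gives no pairing. With the replicate block 109 bins were called, 106 of them among the 110, and 5 gradients. Depth differs between cultivars and was matched only through peak numbers.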
